A study of Mus musculus with 16 samples.

Results

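Hedgehog signalling was described through 8 genes: the ligand genes Dhh and Ihh, the receptor gene Ptch1, the signal transducer gene Smo, the gene of the ligand-binding inhibitor Hhip, and the transcription factor genes Gli1, Gli2 and Gli3. All probes annotated to these symbols were taken, 17 of 41174 probes on the array, and the 8 genes are 8 of 19532 genes with a probe and 8 of 16581 genes tested. Of the 17 probes, 14 were above the detection limit in at least 4 of the 16 samples.

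Hedgehog ligands are secreted proteins that bind the receptor PTCH1, which in their absence holds the membrane protein SMO inactive. Released SMO lets GLI2 and GLI3 escape processing into repressors at the primary cilium and switch on target genes, among them Gli1, Ptch1 and Hhip, whose products feed back on the pathway. In the fetal testis, Sertoli cells secrete DHH, which acts on interstitial and peritubular cells and is needed for fetal Leydig cells to develop, whereas in the ovary Hedgehog ligands are known from granulosa cells acting on theca cells after birth.

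The samples are whole gonads of mouse embryos of 4 groups: male Nanos3-/-, male Nanos3+/-, female Nanos3-/- and female Nanos3+/-. Each group has 1 sample at embryonic day (E) 12.5, 13.5, 14.5 and 15.5. Primordial germ cells die without the RNA-binding protein NANOS3, so the comparison of knockouts with heterozygotes asks what the somatic gonad expresses when germ cells are missing. There is no wild type: every sample carries at least 1 mutant allele, and strain and the deleted segment are not given. Titles end in reps1and2, which was read as replicates 1 and 2 combined in each sample. The days therefore served as replicates (n = 4 per group), and every SD includes change with age. Knockout and sex differences were fitted with a term for each day. Their p-values thus measure how the difference varies between days of these samples. For slopes they measure departures from a line. The values are log2 of the deposited ratio of a probe's signal to its own typical signal, after arrays had been brought to a common 75th percentile. A value of 0 is therefore typical for that probe, and levels of different genes cannot be compared.

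Nanos3 lay between -0.71 and 0.03 in male knockouts and between 0.92 and 3.49 in male heterozygotes, but between -0.50 and 0.15 in female knockouts and between -0.82 and 1.03 in female heterozygotes, which overlap. Whether its probe lies in the deleted part is unknown. Of 10 germ cell markers, 10 were lower in male knockouts and 9 in female knockouts (log2 of their summed ratios 0.46 to 1.58 in male knockouts, 7.10 to 7.94 in male heterozygotes, 1.59 to 1.79 in female knockouts and 6.85 to 7.88 in female heterozygotes). The description field of every female sample says male, against its title, source and sex fields, and Xist, Eif2s3y, Kdm5d and Uty separated the 16 samples by sex as titled. The gonad label matched its markers: the summed Sertoli cell markers were 4.38 to 5.30 in males and 1.50 to 2.05 in females, and the summed pre-granulosa markers 2.05 to 2.49 in males and 4.31 to 5.20 in females. Beside germ cells, 6 of 6 erythroid markers were higher in female knockouts (summed 3.10 to 7.32, against 1.18 to 2.87 in female heterozygotes) and 1 of 6 in male knockouts (2.62 to 3.36, against 1.50 to 2.81 in male heterozygotes). None of the germ cell, Sertoli, pre-granulosa or erythroid markers was at the limit in all 4 samples of any group. In whole gonads, fewer cells of a type and less RNA per cell cannot be told apart.

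The larger differences in this pathway were between the sexes. Dhh, Ptch1, Gli1, Gli2 and Hhip were higher in males than in females in both genotypes, by 0.91 to 7.08 on the log2 scale, whereas Gli3 was lower in males (-0.50 in knockouts, -0.46 in heterozygotes), and Ihh and Smo did not pass the test. Counted over the 8 genes, 5 were higher and 1 was lower in males among knockouts, where 8.99% of all tested genes were called higher and 9.05% lower. Among heterozygotes the counts were again 5 and 1, beside 11.7% higher and 12.1% lower of all tested genes. The median difference of the 8 genes was 1.95 in knockouts and 1.66 in heterozygotes, against 0.03 and 0.04 over all tested genes. Knockout differences were smaller, positive for 7 of 8 genes in each sex. Their median over all tested genes was positive too, 0.12 in males and 0.11 in females, and 0.009 and 0.001 with the arrays as deposited. In males 3 of 8 passed the test, all higher, beside 21.7% of all tested genes higher and 12.6% lower, and in females 2 of 8, all higher, beside 20.9% higher and 12.9% lower.

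The promoters of the ligand gene with the largest sex difference and of Ptch1 and Hhip, feedback target genes called for sex, are shown here, as RefSeq (GRCm38.p6) lists them from 250 bases before to 50 bases after a transcription start. The table held 7 of the 8 genes, and Gli1 was not among them. Capitals mark GGGTGG or its reverse complement CCACCC, the core of the published GLI site TGGGTGGTC, searched on both strands. The regions are chr15:98898491-98898790 for Dhh, chr13:63565686-63565985 for Ptch1 and chr8:80057959-80058258 for Hhip, all on the minus strand and written 5′ to 3′.
Dhh: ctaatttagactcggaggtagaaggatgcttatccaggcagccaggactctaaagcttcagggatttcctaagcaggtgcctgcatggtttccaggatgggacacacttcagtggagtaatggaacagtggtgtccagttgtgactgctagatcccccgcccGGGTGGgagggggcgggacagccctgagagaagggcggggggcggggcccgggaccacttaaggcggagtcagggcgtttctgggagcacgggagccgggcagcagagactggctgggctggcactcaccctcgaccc
Ptch1: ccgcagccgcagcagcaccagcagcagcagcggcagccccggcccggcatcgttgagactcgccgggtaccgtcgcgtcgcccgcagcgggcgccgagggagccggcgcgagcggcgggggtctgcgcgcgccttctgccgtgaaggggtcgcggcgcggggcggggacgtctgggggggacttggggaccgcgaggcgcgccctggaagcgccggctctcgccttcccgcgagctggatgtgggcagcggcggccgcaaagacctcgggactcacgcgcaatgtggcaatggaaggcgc
Hhip: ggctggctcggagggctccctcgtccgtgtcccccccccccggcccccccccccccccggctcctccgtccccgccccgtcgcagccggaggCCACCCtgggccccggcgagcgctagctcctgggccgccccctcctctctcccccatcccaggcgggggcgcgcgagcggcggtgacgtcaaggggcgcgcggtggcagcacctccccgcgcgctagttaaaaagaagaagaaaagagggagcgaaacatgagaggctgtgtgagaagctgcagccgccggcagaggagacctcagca
The core stood once in the Dhh window, at base -88 from the start, once in the Hhip window, at base -158, and was absent from the Ptch1 window. That Ptch1 window lies inside the gene, which on this strand begins at 63573460, so the outer start was not searched. Of all 32851 promoter windows of this length, 31.5% held the core and 0.253% held TGGGTGGTC or its reverse complement, which none of the 7 windows held. Such matches describe letters only.

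Dhh, on chromosome 15 (98881615 to 98898562), encodes the ligand that Sertoli cells secrete, and it was measured by 1 probe. Its log2 ratio from the earliest to the latest day was 1.58, 1.52, 1.92 and 2.04 in male knockouts and 1.14, 1.03, 1.45 and 1.25 in male heterozygotes. The same days gave -5.87, -5.77, -4.81 and -4.83 in female knockouts and -6.09, -6.31, -5.18 and -5.50 in female heterozygotes. Every male sample lay far above every female sample, at all 4 days and in both genotypes. The male minus female difference was 7.08 ± 0.92 (SE) in knockouts (95% interval 5.02 to 9.15, limma adjusted p = 0.000708) and 6.99 ± 0.92 in heterozygotes (4.92 to 9.05, adjusted p = 0.00102), a 136-fold and a 127-fold difference. In the deposited table the female ratios were 0.0123 to 0.0346, near the lowest value that the table holds, 0.01, so the fold rests on values close to the bottom of the scale. Without E14.5, the adjusted p was 0.0653 in knockouts and 0.066 in heterozygotes, and with only the heterozygous samples in the fit it was 0.0829.

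Knockouts had more Dhh than heterozygotes at every day in both sexes, and the 2 male groups did not overlap. The knockout difference was 0.55 ± 0.65 in males (adjusted p = 0.544) and 0.45 ± 0.65 in females (adjusted p = 0.629), neither called. By day the difference was 0.44, 0.49, 0.47 and 0.79 in males and 0.22, 0.54, 0.37 and 0.68 in females. The ± values here and for the sex difference are not the spread of Dhh alone. They also draw on a variance trend that eBayes fits to all genes by mean log2 ratio, which is low for Dhh. With eBayes run without its variance trend, the adjusted p of the knockout difference was 0.0078 in males and 0.0149 in females.

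Ihh, on chromosome 1 (74945315 to 74951672), encodes Indian hedgehog, known for its roles in cartilage and gut, and in the ovary as a granulosa cell ligand. Its main probe gave -0.88, 0.39, -0.16 and 0.50 in male knockouts over the 4 days, and -0.93, -0.13, 1.12 and 1.74 in male heterozygotes. In female knockouts the values were 0.68, -0.49, -0.35 and -1.32, and in female heterozygotes -0.96, -0.19, -0.48 and -0.25. All 4 groups overlapped, and the order of their means, with male heterozygotes at 0.45 ± 1.20 (SD, n = 4) above male knockouts at -0.04 ± 0.63, female knockouts at -0.37 ± 0.82 and female heterozygotes at -0.47 ± 0.35, was within their spread. Neither the knockout difference (-0.49 ± 0.44 in males, 0.10 ± 0.44 in females) nor the sex difference (0.33 ± 0.51 in knockouts, 0.92 ± 0.51 in heterozygotes) passed the test.

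Ihh climbed in male heterozygotes by 0.93 ± 0.15 per day (adjusted p = 0.00291), the 1 of 8 genes called for a rising slope there, beside 10.7% of all tested genes. By sign, 7 of 8 slopes in that group were positive. Male knockouts had a slope of 0.36 ± 0.15 (adjusted p = 0.19), female knockouts -0.59 ± 0.15 (adjusted p = 0.0636) and female heterozygotes 0.18 ± 0.15 (adjusted p = 0.494). At E14.5 and E15.5 male knockouts were 1.28 and 1.24 lower than male heterozygotes, after 0.53 higher at E13.5 and 0.05 higher at E12.5. The knockout difference changed by -0.57 ± 0.22 per day in males (adjusted p = 0.342) and by -0.77 ± 0.22 in females (adjusted p = 0.166), neither called. The male heterozygous slope lost its call without E12.5 (adjusted p = 0.0909) or without E15.5 (0.147). A second Ihh probe was above its limit of 0.39 in 2 of 16 samples, the female knockouts of E12.5 (1.44) and E13.5 (1.24), and was not tested. It stood at that limit in all 4 male heterozygotes, so the climb there rests on the main probe alone.

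**Figure D1:**
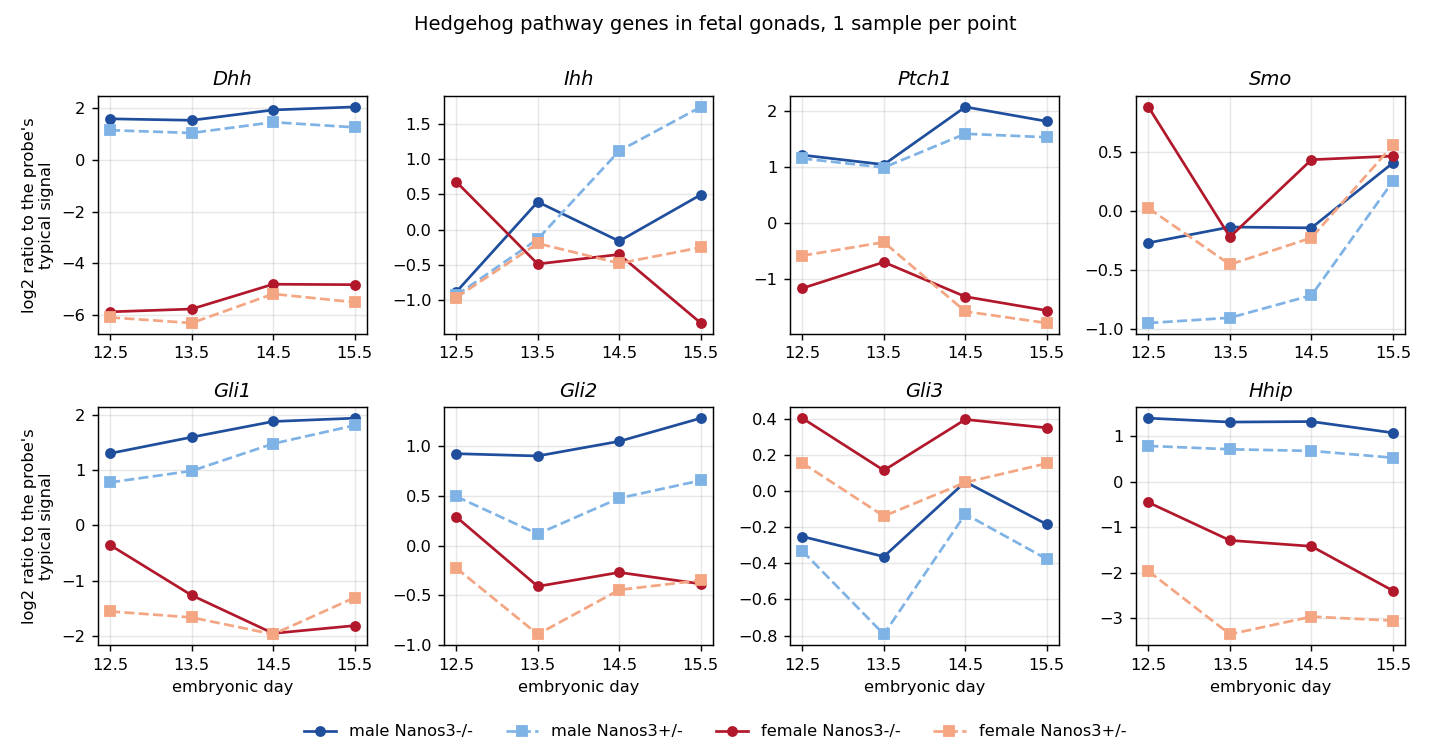
Log2 ratio of the main probe of each of the 8 genes (vertical axes, each with its own scale) at E12.5 to E15.5 (horizontal axis), with 1 sample per point and no error bars. Filled circles with solid lines are knockouts and squares with dashed lines heterozygotes, in blue for males and red for females; the male lines stand clear above the female lines for Dhh, Ptch1, Gli1 and Hhip, and the male heterozygous line of Ihh climbs to 1.74 at E15.5.

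Ptch1, on chromosome 13 (63508328 to 63573460), encodes the receptor and is itself a target of the pathway. Its main probe read 1.22, 1.05, 2.08 and 1.82 in male knockouts and 1.15, 0.99, 1.60 and 1.54 in male heterozygotes. Female knockouts had -1.17, -0.70, -1.32 and -1.57, and female heterozygotes -0.59, -0.35, -1.59 and -1.80. Every male sample exceeded every female sample, while knockouts and heterozygotes of 1 sex overlapped. Males were higher by 2.73 ± 0.39 in knockouts (adjusted p = 0.00124, 6.65-fold) and by 2.40 ± 0.39 in heterozygotes (adjusted p = 0.00284, 5.28-fold), at 4 of 4 days in each. The knockout difference was 0.22 ± 0.16 in males (95% interval -0.15 to 0.59) and -0.11 ± 0.16 in females (-0.48 to 0.26), neither called.

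The 4 Ptch1 probes did not all behave alike. A_51_P127435 followed the main probe A_52_P598605 over the 16 samples (Pearson r = 0.946, a description over samples that share the sex difference) and gave sex differences of 2.59 ± 0.23 in knockouts and 2.29 ± 0.23 in heterozygotes, both called among all probes tested singly. A_52_P22839 did not follow it closely (r = 0.478) and gave 0.64 ± 0.26 (adjusted p = 0.129) and 0.31 ± 0.26 (adjusted p = 0.433). The fourth, A_52_P78168, was above its limit in 3 of 16 samples, the male knockouts of E12.5 and E13.5 (1.76 and 1.09) and the male heterozygote of E12.5 (0.94). No probe of Ptch1 was called for the knockout.

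Smo, on chromosome 6 (29735497 to 29761366), encodes the transducer that PTCH1 holds inactive. It read -0.27, -0.13, -0.14 and 0.41 in male knockouts and -0.95, -0.91, -0.72 and 0.26 in male heterozygotes. Female knockouts gave 0.89, -0.22, 0.44 and 0.47, and female heterozygotes 0.03, -0.45, -0.23 and 0.56. The 4 groups overlapped, with the highest mean in female knockouts and the lowest in male heterozygotes. Smo rose in male knockouts by 0.55 ± 0.16 (adjusted p = 0.0327, 1.46-fold, higher at 4 of 4 days), and the difference in females was 0.42 ± 0.16 (adjusted p = 0.0815, higher at 3 of 4 days). Before scaling, the male knockout of E15.5 was the lower one (deposited ratio 1.19, against 1.43 in the heterozygote). The male call was lost without E12.5 (adjusted p = 0.068), E13.5 (0.159) or E14.5 (0.134). A second probe was called in both sexes, with 0.53 ± 0.10 in males (adjusted p = 0.00675) and 0.43 ± 0.10 in females (adjusted p = 0.0134), and another was at its limit in all 16 samples. The male minus female difference was -0.43 ± 0.21 in knockouts (adjusted p = 0.205) and -0.56 ± 0.21 in heterozygotes (adjusted p = 0.0858).

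Hhip, on chromosome 8 (79965850 to 80058060), encodes a membrane protein that binds Hedgehog ligands and dampens the signal, and it is a target gene. Male knockouts had 1.39, 1.31, 1.32 and 1.07 over the 4 days, and male heterozygotes 0.78, 0.71, 0.68 and 0.53. Female knockouts had -0.45, -1.29, -1.42 and -2.39, and female heterozygotes -1.96, -3.35, -2.96 and -3.05. The order was the same on every day: male knockout, male heterozygote, female knockout, female heterozygote. Only the female groups overlapped, since the female knockout of E15.5 lay below the female heterozygote of E12.5. In the deposited ratios the male groups overlapped too, with the knockout of E15.5 (1.88) just below the heterozygote of E14.5 (1.89).

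Males were higher for Hhip by 2.66 ± 0.27 in knockouts (adjusted p = 0.000166, 6.33-fold) and by 3.50 ± 0.27 in heterozygotes (adjusted p = 5.1e-05, 11.3-fold). Hhip also had the largest knockout difference of the 8 genes in females, where it rose by 1.44 ± 0.18 (95% interval 1.02 to 1.86, adjusted p = 0.00146, 2.72-fold). By day that difference was 1.51, 2.06, 1.54 and 0.66. In male knockouts Hhip rose by 0.60 ± 0.18 (adjusted p = 0.0345, 1.51-fold), with daily differences of 0.55 to 0.64, a call lost without E12.5 (adjusted p = 0.0983), E13.5 (0.0764) or E14.5 (0.153). The male minus female difference of these knockout differences was -0.84 ± 0.26 (95% interval -1.43 to -0.25, adjusted p = 0.144). That test called none of the 8 genes, 1 of them had an unadjusted p under 0.05, and it called 0.874% of all tested genes. In female knockouts Hhip fell by 0.59 ± 0.13 per day (adjusted p = 0.0355), a slope whose call was lost without E12.5 (adjusted p = 0.326), E14.5 (0.187) or E15.5 (0.613).

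The second Hhip probe, A_51_P416822, followed the first (r = 0.95, a description). It was at its limit of -2.79 in all 4 female heterozygotes and in the female knockouts of E14.5 and E15.5, and read -1.59 and -1.84 in the female knockouts of E12.5 and E13.5. Both of those female knockouts thus stood above a limit that no female heterozygote passed. Male heterozygotes averaged 1.17 on this probe, at least 15.5-fold higher than female heterozygotes (adjusted p = 8e-06). Its knockout difference did not pass the test in either sex, with adjusted p = 0.0685 in males and 0.0697 in females. In females 4 of 4 heterozygotes and 2 of 4 knockouts were at the limit, so the size of that difference is not known.

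**Figure D2:**
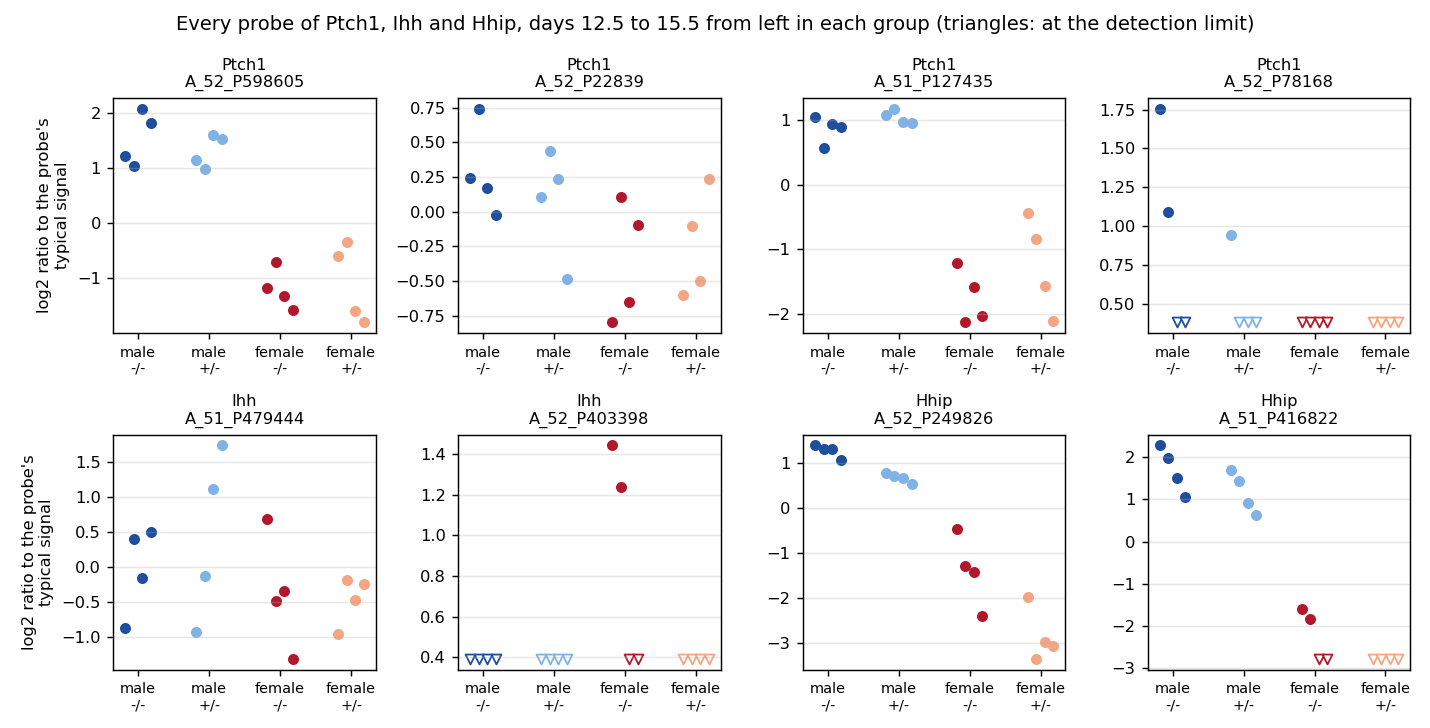
Log2 ratio (vertical axis) of every probe of Ptch1, Ihh and Hhip in the 4 groups (horizontal axis), with the 4 days from left to right within a group and open triangles for values at the detection limit. Male and female points are apart for A_52_P598605 and A_51_P127435 of Ptch1 and for both Hhip probes, and they mix for A_52_P22839 of Ptch1 (sex differences 0.64 in knockouts and 0.31 in heterozygotes).

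Gli1, on chromosome 10 (127329882 to 127341579), encodes the activator whose transcription is a common readout of the pathway, and it has 1 probe. Male knockouts had 1.30, 1.59, 1.88 and 1.93, and male heterozygotes 0.77, 0.98, 1.47 and 1.80. Female knockouts had -0.36, -1.27, -1.96 and -1.82, and female heterozygotes -1.56, -1.67, -1.97 and -1.31. Every male sample was above every female sample, and the genotypes overlapped within each sex. The sex difference was 3.02 ± 0.34 in knockouts (adjusted p = 0.000325, 8.13-fold) and 2.89 ± 0.34 in heterozygotes (adjusted p = 0.000578, 7.39-fold). In knockouts this difference was 1.66 on the earliest day and 3.75 on the latest.

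The knockout difference of Gli1 was 0.42 ± 0.23 in males (adjusted p = 0.193, higher at 4 of 4 days) and 0.28 ± 0.23 in females (adjusted p = 0.387, higher at 3 of 4 days). In the deposited ratios the male knockout of E15.5 was lower than the heterozygote (3.41 against 4.18). So was the female knockout of E14.5 (0.210 against 0.246). Female knockouts were 1.20 higher at E12.5 and 0.51 lower at E15.5. Gli1 fell by 0.51 ± 0.12 per day in female knockouts (adjusted p = 0.0393), against a slope of 0.04 ± 0.12 in female heterozygotes (adjusted p = 0.875). The difference of these slopes was -0.55 ± 0.17 (adjusted p = 0.209), not called. The female knockout slope lost its call when any 1 day was left out (adjusted p = 0.0998 to 0.518). Slopes in female knockouts were negative for 6 of 8 genes, and 2 of 8, Gli1 and Hhip, were called lower, beside 1.03% of all tested genes. Both calls rest on the same 4 samples. In males the Gli1 slope was 0.22 ± 0.12 in knockouts (adjusted p = 0.276) and 0.36 ± 0.12 in heterozygotes (adjusted p = 0.0568).

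Gli2, on chromosome 1 (118834061 to 119054405), encodes the main activator of the response. Its values were 0.93, 0.90, 1.05 and 1.28 in male knockouts and 0.50, 0.12, 0.48 and 0.66 in male heterozygotes. Female knockouts gave 0.29, -0.41, -0.27 and -0.38, and female heterozygotes -0.22, -0.89, -0.45 and -0.35. Male knockouts lay above male heterozygotes without overlap, both lay above the female heterozygotes, and the female genotypes overlapped. Males were higher by 1.23 ± 0.19 in knockouts (adjusted p = 0.00187) and by 0.91 ± 0.19 in heterozygotes (adjusted p = 0.00848). Gli2 rose in male knockouts by 0.60 ± 0.13 (adjusted p = 0.00846, 1.52-fold), and the difference in females was 0.28 ± 0.13 (adjusted p = 0.111). The male knockout call was lost without E13.5 (adjusted p = 0.0582) or E14.5 (0.0605), and so was the heterozygous sex difference (0.0551 and 0.0658). A second probe (r = 0.707 with the first) gave 0.51 ± 0.27 in males (adjusted p = 0.191), and none of its knockout or sex differences was called.

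Gli3, on chromosome 13 (15463723 to 15730026), encodes the factor that acts mostly as the repressor, and it was the 1 gene called lower in males. Male knockouts had -0.25, -0.36, 0.05 and -0.19, and male heterozygotes -0.33, -0.79, -0.13 and -0.38. Female knockouts had 0.40, 0.11, 0.39 and 0.35, and female heterozygotes 0.15, -0.14, 0.05 and 0.15. Male and female knockouts did not overlap, and the heterozygotes of E14.5 in males and E13.5 in females met at -0.13 and -0.14. The male minus female difference was -0.50 ± 0.13 in knockouts (adjusted p = 0.0248) and -0.46 ± 0.13 in heterozygotes (adjusted p = 0.0302). Gli3 rose in female knockouts by 0.26 ± 0.08 (adjusted p = 0.0401, 1.20-fold, 4 of 4 days), and in males the difference was 0.22 ± 0.08 (adjusted p = 0.0709). Before scaling, the female knockout of E15.5 was the lower one (deposited ratio 1.25, against 1.32 in the heterozygote). All calls of Gli3 were lost with the arrays as deposited and in at least 3 of the 4 fits that left out a day. The second probe followed the first weakly (r = 0.402) and was called in neither comparison.

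The genes called in the knockout were Smo, Gli2 and Hhip in males and Gli3 and Hhip in females. The median difference of the 8 genes was 0.48 in males and 0.28 in females, against 0.12 and 0.11 over all tested genes, and that shift changed with the scaling. With the arrays as deposited the median over all genes was 0.009 in males and 0.001 in females, and 0 of the 8 genes were called in males and 1, Hhip, in females. Germ cell markers and erythroid markers moved with genotype. Of the 6 erythroid markers, 6 had a positive difference in male knockouts (median 1.05, 1 called) and 6 were called higher in female knockouts (median 2.93). Their part in these differences was not tested.

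**Figure D3:**
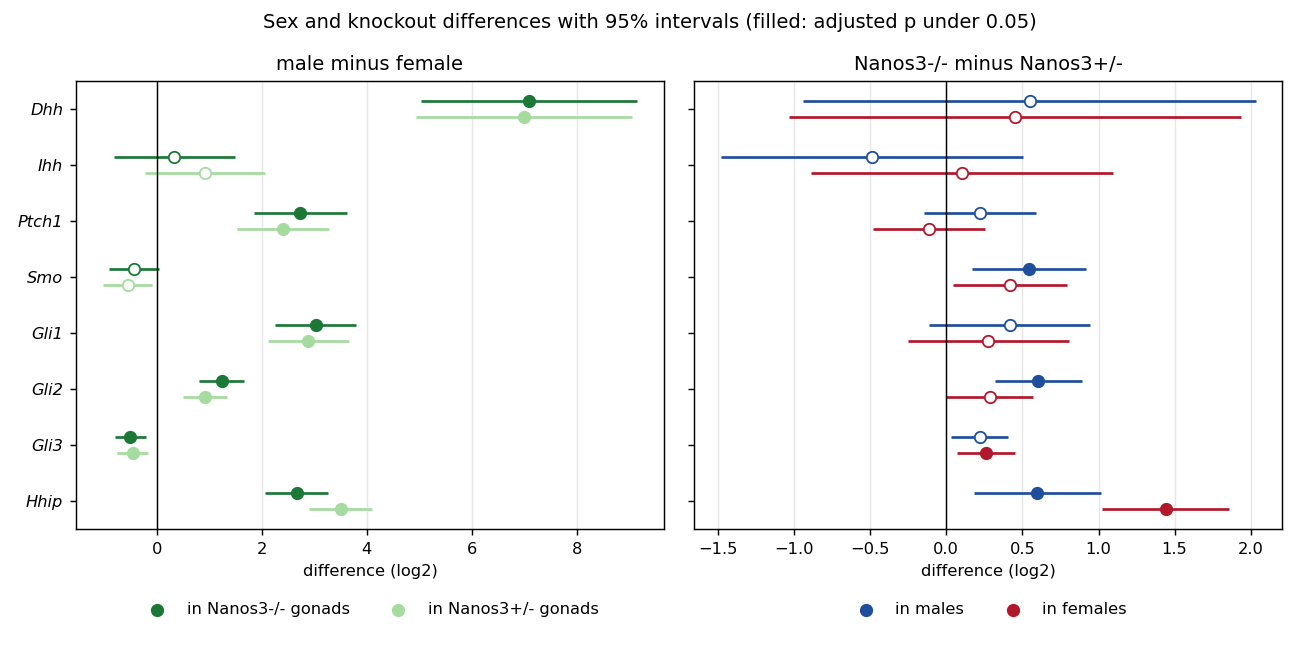
Log2 differences of the 8 genes with 95% intervals from limma (horizontal axes), male minus female on the left and Nanos3-/- minus Nanos3+/- on the right, with filled points for adjusted p under 0.05. The sex differences run from -0.56 for Smo to 7.08 for Dhh, and on the right Hhip in females stands at 1.44 while the open points include Dhh at 0.55 in males and 0.45 in females.

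In the other 2 groups no slope was called. The slope was called for 0 of 8 genes in male knockouts (5.82% of all tested genes in either direction, 1 of the 8 with an unadjusted p under 0.05) and for 0 in female heterozygotes (9.77%, 1 of the 8). Ptch1 fell short of the threshold in female heterozygotes, with -0.49 ± 0.15 per day (adjusted p = 0.0662). Male minus female moved upward with day for 7 of 8 genes in each genotype by sign. None of these changes was called (0.887% of all tested genes in knockouts and 3.35% in heterozygotes). At an unadjusted p under 0.05 there were 3 such genes in knockouts, Ihh, Gli1 and Hhip, and 2 in heterozygotes, Ihh and Ptch1. For Smo and Gli3, which had negative sex differences, the upward move made the difference smaller. It was 0.26 and 0.05 per day in knockouts and 0.20 and 0.03 in heterozygotes. Ihh changed by 0.95 ± 0.22 per day in knockouts (adjusted p = 0.0769) and Gli1 by 0.73 ± 0.17 (adjusted p = 0.0755). The change of the knockout difference with day, a comparison added after values had been seen, called 0 of 8 genes in males (1.57% of all tested genes, 1 of the 8 with an unadjusted p under 0.05) and 0 in females (0.585%, 2 of the 8).

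Genes whose course over the 16 samples was most like that of each member were picked by Pearson correlation, a description over samples that share the sex difference. Dhh was nearest to the Y-linked histone demethylase gene Kdm5d (r = 0.993), then to Tmem184a and Rasgrf2 (both 0.992). Ptch1 was nearest to Pgp and Nes (both 0.970) and to Gdnf (0.969). For Gli1 the nearest genes were Osr2 (0.981), Map3k21 (0.980) and Stc1 (0.978), for Gli2 Slc10a4 (0.978), Irf8 (0.968) and Rnf144a (0.967), and for Hhip Cnga1 (0.988), Tacr3 and Pltp (both 0.967). Smo and Gli3 had lower values, with Casp8 (0.942), Adam15 (0.935) and Tti2 (0.931) for Smo, and Laptm4b (0.947), Colec12 (0.944) and Akap5 (0.943) for Gli3. Ihh stood lowest, with Cyp2a22 (0.888), Ggt7 (0.861) and Adgrv1 (0.855). None of these genes is one of the 8.

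Other genes of ligand release, uptake and reception moved in both directions between the sexes. Of 13 tested genes, 4 were higher and 3 lower in males among knockouts (median -0.39), beside 8.99% and 9.05% of all tested genes. Among heterozygotes 2 were higher and 2 lower (median -0.32), near the 11.7% and 12.1% of all tested genes. The coreceptor gene Boc was lower in males, with -1.24 ± 0.15 in knockouts (adjusted p = 0.00046) and -1.18 ± 0.15 in heterozygotes (adjusted p = 0.000812). Gas1, another coreceptor gene, had -0.59 ± 0.13 in heterozygotes (adjusted p = 0.00973). Higher in males were Scube1, of a family that aids ligand release (0.86 ± 0.16 in knockouts, 0.73 ± 0.16 in heterozygotes), and the glypican genes Gpc6 (1.23 ± 0.22 in knockouts) and Gpc3 (0.77 ± 0.20 in heterozygotes). Shh, the ligand gene named sonic hedgehog, was at its limit in all 4 female knockouts, 2 of 4 female heterozygotes and 1 of 4 male heterozygotes. It averaged 1.96 ± 1.13 in male knockouts, at least 5.35-fold higher than in female knockouts (SD, n = 4, adjusted p = 0.00548).

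In the knockout 7 of these 13 genes were higher and 1 lower in males (median 0.41), and 5 higher and 1 lower in females (median 0.30). Over all tested genes, 21.7% were higher and 12.6% lower in males, and 20.9% higher and 12.9% lower in females, with medians of 0.12 and 0.11. Boc rose by 0.56 ± 0.12 in male and by 0.62 ± 0.12 in female knockouts. In females Gpc3 (0.57 ± 0.12) and Ext1, a heparan sulfate polymerase gene (0.48 ± 0.12), also rose, and in males Gpc6 (0.55 ± 0.13). Shh rose in male knockouts by 0.93 ± 0.18, with 1 male heterozygote at the limit. Disp1, which encodes the exporter of the ligand from producing cells, was the gene that fell, with -0.71 ± 0.17 in males and -0.57 ± 0.17 in females. With the arrays as deposited none of the 13 was called in either sex, and without E13.5 the calls numbered 3 in males and 0 in females, without E14.5 2 in males and 1 in females.

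Of 19 tested genes of the primary cilium and of GLI processing, 3 rose and 2 fell in male knockouts (median -0.01) and 3 rose and 3 fell in female knockouts (median -0.04). Over all tested genes, 21.7% rose and 12.6% fell in males, and 20.9% rose and 12.9% fell in females. The counts of this list are near those shares. Tulp3, whose product carries receptors into the cilium, rose by 0.38 ± 0.10 in males and by 0.54 ± 0.10 in females. Prkaca, the catalytic subunit gene of protein kinase A, which marks GLI proteins for processing, rose by 0.50 ± 0.10 in males and by 0.51 ± 0.10 in females. The kinesin motor gene Kif3a fell by 0.65 ± 0.14 in males, and in females the ciliary transport gene Ift88 fell by 0.69 ± 0.23 and Efcab7 by 0.59 ± 0.18. Arrb2, a beta-arrestin gene, fell by 1.35 ± 0.22 in male knockouts (-0.24 ± 0.39, against 1.11 ± 0.97 in male heterozygotes, SD, n = 4). Between the sexes, 1 was higher and 3 were lower in male than female knockouts, beside 8.99% and 9.05% of all tested genes. Among heterozygotes 1 was higher and 1 lower, beside 11.7% and 12.1%. There Sufu, which holds GLI proteins back, had -0.59 ± 0.16 (adjusted p = 0.0286) and Arrb2 was the higher gene (adjusted p = 0.0437). The lower genes in male knockouts included Stk36 (-0.82 ± 0.21), Kif3a (-0.60 ± 0.14) and Tulp3 (-0.54 ± 0.13), while Gpr161 was higher (0.51 ± 0.15). Without E13.5 the knockout calls numbered 2 in males and 0 in females, and with the arrays as deposited 1 and 0.

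Genes known as Hedgehog targets in mesenchyme were counted in the same way. Over all tested genes, 8.99% were higher and 9.05% lower in males among knockouts, and 11.7% and 12.1% among heterozygotes. Of the 13 tested targets, 1 was higher in males in each genotype, the forkhead gene Foxc2 (0.97 ± 0.16 in knockouts, 1.16 ± 0.16 in heterozygotes). That count is near the share of all tested genes called higher. None was called lower, though estimates reached -1.10 in knockouts and -0.71 in heterozygotes, and the medians were -0.23 and -0.14. In the knockout, 6 rose in males (median 0.34) and 6 rose and 1 fell in females (median 0.29), beside the 21.7% and 20.9% of all tested genes that rose. Tgfb2 rose by 0.51 ± 0.14 in males and by 0.73 ± 0.14 in females. The cell cycle gene Ccnd1 (0.46 ± 0.09), Sfrp1, which encodes a secreted WNT inhibitor (0.45 ± 0.11), and the survival gene Bcl2 (0.44 ± 0.10) rose in males, while Cdk6 (0.63 ± 0.18) and Foxc2 (0.61 ± 0.11) rose in females. Foxf2 fell in female knockouts by 1.28 ± 0.32. With the arrays as deposited the counts were 0 in males and 1 in females, without E13.5 they were 1 in each sex, without E14.5 0 in males and 2 in females, and without E12.5 2 in males and 4 in females.

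**Figure D4:**
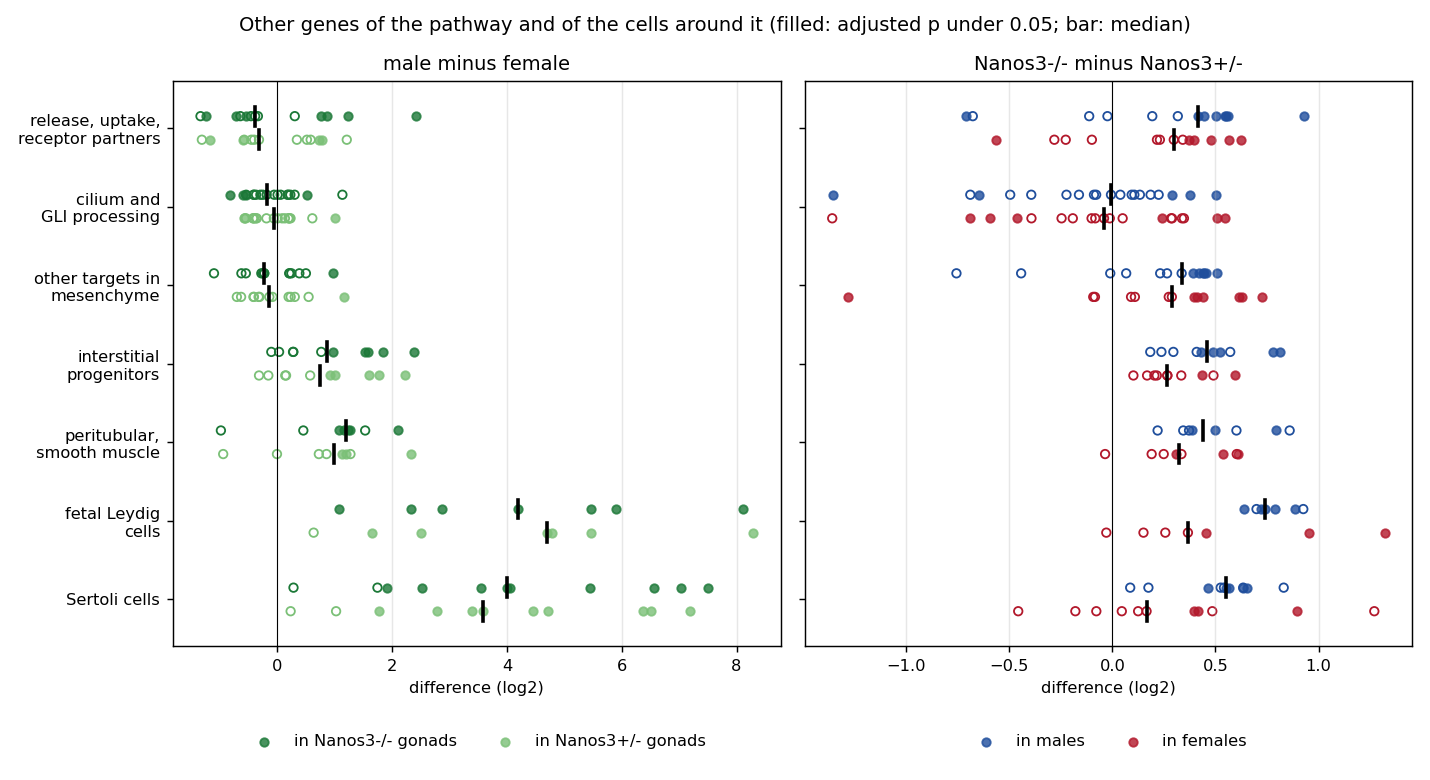
Log2 differences (horizontal axes) of the tested genes of 7 lists (rows), male minus female on the left and Nanos3-/- minus Nanos3+/- on the right, with filled points for adjusted p under 0.05 and a black bar at each list's median. Fetal Leydig and Sertoli cell genes lie far to the right in the sex comparison, with medians of 4.20 and 4.01 in knockouts and 4.70 and 3.59 in heterozygotes, while the Hedgehog partner, cilium and other target genes scatter around 0.

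Genes of the cells that make or receive the ligand in the testis moved with sex. Of 11 Sertoli cell markers 9 were higher in males in each genotype, and the summed level of the list did not overlap between the sexes. All 7 tested fetal Leydig cell genes were higher in males among knockouts and 6 among heterozygotes, with Cyp11a1, the first enzyme of steroid synthesis, at 8.12 ± 1.51 and 8.29 ± 1.51, and Cyp17a1, needed for androgen synthesis, at 5.91 ± 0.69 and 5.46 ± 0.69. Of 10 interstitial progenitor genes 5 were higher in males in each genotype, led by the Notch target Heyl (2.38 ± 0.14 in knockouts, 2.21 ± 0.14 in heterozygotes). Of 8 peritubular and smooth muscle genes 5 were higher in male knockouts and 3 in male heterozygotes, with the actin gene Acta2 at 2.09 ± 0.31 and 2.33 ± 0.31. Over all tested genes, 8.99% were higher and 9.05% lower in males among knockouts, and 11.7% and 12.1% among heterozygotes. In none of these 4 lists was a gene called lower in males. The lowest estimates were negative in 2 of them. They were -0.98 in knockouts and -0.94 in heterozygotes for peritubular genes, and -0.11 and -0.32 for progenitor genes. These lists move with the sex difference of the 8 genes, and their part in it was not tested.

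In the knockout the called genes of these 4 lists were all higher, and their counts stand beside 21.7% of all tested genes higher in males and 20.9% in females. The 2 of 10 progenitor genes and 3 of 11 Sertoli markers in females are near that share. Of the Leydig genes 5 rose in males (median 0.74) and 3 in females (median 0.37), among them Hsd3b1, another enzyme of steroid synthesis (0.74 ± 0.14 in males, 1.32 ± 0.14 in females), and Nr5a1, which encodes the steroidogenic transcription factor (0.89 ± 0.14 and 0.45 ± 0.14). The interstitial progenitor genes counted 5 in males and 2 in females, with the transcription factor gene Maf at 0.81 ± 0.12 and 0.60 ± 0.12, and the peritubular genes 3 in each sex. Sertoli markers counted 5 in males (median 0.55) and 3 in females (median 0.17), with Sox9, the factor that directs Sertoli cell fate, at 0.63 ± 0.10 and 0.90 ± 0.10. With the arrays as deposited these counts were 1, 1, 0 and 0 in males and 1, 0, 0 and 1 in females, in the order Leydig, progenitor, peritubular and Sertoli. Without E13.5 they were 4, 3, 0 and 2 in males and 2, 0, 0 and 1 in females, and without E14.5 2, 1, 0 and 4 in males and 2, 0, 1 and 1 in females.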

How the data were processed

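Per the labels, total RNA of embryonic gonads was amplified, labelled with Cy3 and hybridised to one-colour Agilent arrays, which were read with Agilent Feature Extraction 9.5 per the submitters' processing notes. The deposited values are linear ratios of each probe's signal to its typical signal, with replicates 1 and 2 taken as combined because the titles end in reps1and2. How the authors scaled, centred and combined them is not given in the sources used here, and that they are ratios was read from the values, since 94.3% of the probes have a median of 0.9 to 1.1. The genome build of the array design was not used. The number of arrays limits the precision.

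Of 41267 probes 93 control probes were left out, and 32664 of the others carried a single gene symbol in the platform annotation, 45 several and 8465 none. Each sample's detection limit was recovered from ratios that many probes shared between samples (tolerance 2e-04 on the log2 scale), with 10126 to 11635 probes at the common limit per sample. Arrays were scaled to the same 75th percentile over 28373 probes never at the limit (shifts of -0.26 to 0.33), values below the highest of the 16 limits were raised to it, and log2 was taken. A gene was represented by the probe that was least often at its limit, and genes above the limit in at least 4 samples were tested.

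Differences were fitted over all 16 samples with limma 3.58.1 in R 4.3.3 (lmFit, eBayes with trend, Benjamini-Hochberg over 16581 genes, threshold 0.05). Knockout effects had terms for each sex and day, sex effects for each genotype and day, and slopes a line per group. The recovery of limits and the fits were checked on simulated data. The members, the gene lists and the tests were chosen with earlier results of these data known, and the change of the knockout difference with day was added after values had been seen. Text names all probes of the 8 genes, per member the 3 genes of highest correlation, and per list at most 4 called genes of largest size in a comparison. Cell type lists covered Sertoli, pre-granulosa, germ, mesonephric, endothelial, macrophage, erythroid and adrenocortical cells, and pathway and target cell lists the genes of release and reception, cilium and GLI processing, other targets, fetal Leydig, interstitial progenitor and peritubular cells. Alternatives changed the scaling, limit, filter, probes, samples, weights, variance trend, day term and days.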

Additional observations from a re-analysis of the deposited data

How the results depend on the processing

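The sex differences of Ptch1, Gli1 and Hhip were called in both genotypes in the 15 alternatives that give a gene 1 value, and so was the rise of Hhip in female knockouts (0.99 to 1.74). When every tested probe had to be called, the sex calls of Ptch1 and the rise of Hhip in females were lost. Of the single probes, those at the limit in all samples of a group give bounds only.

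The main fits used the day as a replicate block. With no replicate block, the number of the 8 genes called for the knockout was 0 in males and 1 in females, against 3 and 2 with it. Calls in males were 0 with the arrays as deposited and 1 when every tested probe of a gene had to be called. Calls in females were 1 with the arrays as deposited, after quantile normalization, after scaling to the median of tested genes and with only the samples of the comparison, and 0 when every probe had to be called. Leaving out 1 day gave 0 to 3 calls in males (1 without E12.5, 0 without E13.5 and 0 without E14.5) and 1 to 2 in females (1 without E12.5, E13.5 or E14.5). In males Gli2 had adjusted p = 0.0582 without E13.5 and 0.0605 without E14.5, and Smo and Hhip lost their call without E12.5, E13.5 or E14.5. For the sex difference, requiring every probe left 3 of 6 calls in knockouts and 3 of 6 in heterozygotes, and leaving out 1 day gave 4 to 5 calls in knockouts and 3 to 6 in heterozygotes (3 without E14.5).

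The female knockout slopes numbered 1 with the arrays as deposited or quantile normalized and 0 with no filter or with their own samples alone, against 2, and 0 to 2 without 1 day (0 without E12.5, E14.5 or E15.5). The male heterozygous slopes numbered 3 with the arrays as deposited, 2 after median scaling and 0 with their own samples alone, against 1, and 0 to 1 without 1 day (0 without E12.5 or E15.5). Male knockout slopes and the change of the sex difference in knockouts numbered 0 to 1 without 1 day, the 1 being Ihh without E13.5 in both. With the arrays as deposited the share of higher genes among all knockout calls was 16.6% in males and 21% in females, against 63.3% and 61.8%. With no day term it was 14.8% and 20.9%, and after quantile normalization 50.1% and 52%.

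Values that changed sign were all uncalled. For the knockout difference in females, Ihh gave -0.013 with the arrays as deposited, -0.052 with array weights and -0.41 to 0.49 without 1 day, Ptch1 0.000701 after quantile normalization and -0.24 to 0.044 without 1 day, and Gli1 -0.030 to 0.54 without 1 day. Without 1 day, the male minus female knockout difference of Gli1 was -0.027 to 0.41 and the sex difference of Ihh in knockouts -0.16 to 0.96. Female heterozygous slopes turned for Gli1 (-0.045 quantile normalized, -0.21 to 0.18 without 1 day), Ihh (-0.028 to 0.24 without 1 day) and Hhip (-0.50 to 0.15 without 1 day). Male heterozygous slopes turned for Hhip (0.039, arrays as deposited) and Ptch1 (-0.027, mean of all probes). The change of the heterozygous sex difference of Hhip was -0.081 with the mean of all probes and -0.24 to 0.44 without 1 day. The change of the knockout difference turned in females for Hhip (-0.70 to 0.018 without 1 day), and in males for Ptch1 (-0.097, arrays as deposited), Gli1 (0.15, quantile normalized) and Hhip (0.066 quantile normalized, -0.026 to 0.017 without 1 day). The causes were not tested. Array weights gave values for 5 of 13 comparisons and did not converge for the other 8.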

Other observations

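Of 7 fetal Leydig cell genes, 4 were called for a rising slope in male knockouts (median 0.84 per day) and 4 in male heterozygotes (median 0.83), and none in either female group. The slopes of the 7 ran from -0.61 to 1.71 in male knockouts and from -0.70 to 1.72 in male heterozygotes. Over all 16581 tested genes, 546 were called for a rising slope in male knockouts and 1771 in male heterozygotes. With only a group's own samples in the fit, no gene was called for a slope in any group. Of the lists of other cells, endothelial markers were higher for 6 of 9 genes in male and 4 of 9 in female knockouts, and macrophage markers for 3 of 7 in males and 0 in females, beside 21.7% of all tested genes in males and 20.9% in females. Over 15 alternatives the endothelial calls ranged from 0 to 7 in males and 0 to 5 in females, and the macrophage calls from 0 to 4 in males and 0 to 1 in females. Mesonephric markers counted 2 higher and 1 lower of 7 in male knockouts and 1 higher in female knockouts, and 4 were lower in males than in females in each genotype. Pre-granulosa markers counted 3 higher and 1 lower of 10 in male and 4 higher and 1 lower in female knockouts, and 9 were lower in males in each genotype. Both adrenocortical markers were higher in males in each genotype, and 1 rose in knockouts of each sex. Over all tested genes, 12.6% were lower in male and 12.9% in female knockouts. Between the sexes, 8.99% were higher and 9.05% lower in males among knockouts, and 11.7% and 12.1% among heterozygotes. Of 6 erythroid markers 5 were called for a rising slope in female knockouts (median 1.20 per day), beside 386 of all 16581 tested genes. Of the same 6, 2 were lower in male than in female knockouts.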
